A study of Bombyx mori with 2 samples.

Results

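The genes described here are those that recognise microbes in the silkworm, together with lysozymes, the Toll receptors and their ligand. They were chosen by name. A gene was taken when its BLAST name held peptidoglycan, beta-1,3-glucan, C-type lectin, immulectin, hemolin, lysozyme, protein toll, toll-like or spatzle, and 41 of the 12376 genes in the expression table did. They comprised 10 peptidoglycan recognition proteins, 2 LysM proteins with a peptidoglycan-binding name, 4 beta-1,3-glucan recognition proteins, 7 C-type lectins, 2 genes with hemolin in the name, 4 lysozymes, 2 spatzle genes and 10 Toll receptors. No gene was named immulectin. The BLAST hit was a *Bombyx mori* protein for 39 genes and a protein of another moth or butterfly for the other 2.

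Insects have no antibodies and meet microbes with proteins of the blood, the cuticle and the gut lining. Peptidoglycan recognition proteins bind the cell wall of bacteria, beta-1,3-glucan recognition proteins bind the cell wall of fungi, and C-type lectins bind sugars. Binding starts a chain of serine proteases in the blood that activates phenoloxidase and also cuts spatzle, the ligand of Toll. Toll then signals through MyD88 and the kinase Pelle to release the transcription factor Dorsal from its inhibitor Cactus, and genes of antimicrobial peptides are switched on. In *Drosophila* a separate route, the IMD pathway, also starts at peptidoglycan recognition proteins.

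The expression values came from heads of 2nd instar larvae in the pre-molting stage. The wildtype strain C603, which molts normally, gave 1 library, and the *nm2* mutant, which fails to molt in the 2nd instar and later dies, gave the other. Each library was a pool of 6 larvae, and no infection or other treatment is named for either. The comparison was made because a structural change of *BmCPG10*, a cuticular protein gene, had been linked to the *nm2* phenotype. The mutant was found in C603 stock. Any other difference between the stocks, and the failure to molt itself, cannot be told apart from the mutation with these libraries. Neither can fewer cells of a type and less RNA per cell.

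Each strain gave 1 library, so no difference between them could be tested and none below has a replicate check. Values are FPKM, fragments per kilobase of gene and 1000000 fragments, which take account of gene length. The difference of a gene is log2((*nm2* + 1)/(wildtype + 1)), with 1 FPKM added to each value. A gene is called higher or lower in the *nm2* mutant when it reached 5 FPKM in a library and this difference was at least 1 in size. For genes whose length is given in the table of differentially expressed genes, reads were recovered from the FPKM, and a 95% counting interval is given. These intervals cover counting error only. They exist for 10 of the 41 genes. That table holds only genes selected for a difference between these same libraries, so the intervals are a scale for counting error and no independent evidence.

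The wildtype library had 12912619 clean reads, of which 55.48% mapped to genes, and the *nm2* library had 12900347, of which 60.12% did. Most *nm2* values lay a little below those of the wildtype. Among the 7607 genes that reached 5 FPKM in each library, the median log2 ratio was -0.28. Of the markers for head tissue, muscle genes were abundant, with sums of 29368.9 FPKM in the wildtype library and 20676.5 FPKM in the *nm2* library. The 6 genes with opsin in the name stayed at or under 4.83 FPKM. On the eye list of 19 names 5 reached 5 FPKM, and 2 of these were higher and 0 lower, against 8.83% and 15% of all genes. The higher ones were a scarlet-like gene (*BGIBMGA002581*) at 4.45 and 47.5 FPKM and a chaoptin gene (*BGIBMGA003269*) at 8.31 and 20.5 FPKM. Neuronal names summed to 713 FPKM in the wildtype library against 700 FPKM in the *nm2* library, but only 12 of 38 reached 5 FPKM. Much of the sum came from a synaptobrevin-like gene (204 and 129 FPKM) and a leucine-rich repeat neuronal protein 3-like gene (172 and 293 FPKM). An elav-like gene (*BGIBMGA005888*) had 17.7 and 4.78 FPKM, and a complexin-like gene had 6.80 and 10.1 FPKM. The sums are therefore no measure of the amount of nerve tissue. Markers of midgut and fat body were abundant in both libraries.

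The listed genes are called recognition genes for short, although lysozymes, spatzle genes and Toll receptors are among them. More of them were lower in the *nm2* library than higher. Of the 31 recognition genes that reached 5 FPKM, 9 were lower (29.0%) and 2 were higher (6.45%). Among all 9158 genes that reached it, 15% were lower and 8.83% higher, or 23.8% in all. The other 20 recognition genes lay between the limits, from -0.95 to 0.74. In the families that bind microbes, 2 of 10 peptidoglycan recognition proteins, 2 of 6 C-type lectins and 0 of 4 beta-1,3-glucan recognition proteins were lower. Both higher genes were in these families. The remaining lower genes were 2 of 3 lysozymes, 1 of 2 spatzle genes, 1 of 3 Toll receptors and the hemolin-interacting protein. The share of 29.0% therefore does not describe the families that bind microbes alone. The median difference of the 31 genes was -0.67, against -0.30 over all genes at 5 FPKM or more. After a rescaling of the *nm2* values that brought the median ratio of all genes to 1, 12.3% of all genes were higher and 9.96% lower, or 22.3% in all. On that scale 8 of the 9 lower recognition genes were still lower, both higher genes were still higher, and *CTL5* joined the higher genes at 1.02. The share of lower genes among the calls went from 81.8% to 72.7% for the recognition genes and from 62.9% to 44.7% for all genes. The other 10 genes stayed under 5 FPKM in both libraries, with 3.75 FPKM as the highest value, and cannot be called.

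**Figure D1:**
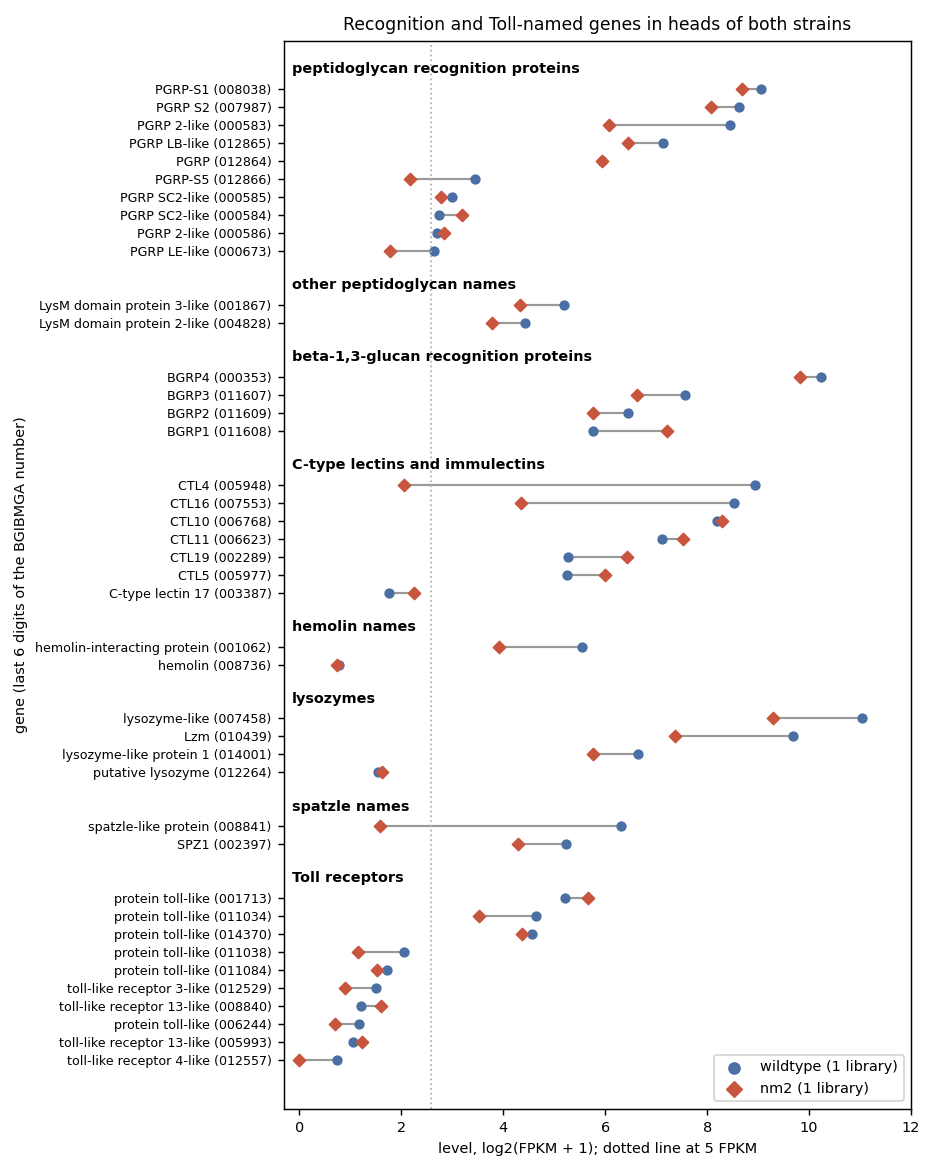
Level of each of the 41 genes as log2(FPKM + 1) on the horizontal axis, with the wildtype library as a circle and the *nm2* library as a diamond, joined by a line and grouped by role. *CTL4*, *CTL16* and the spatzle-like gene have the longest lines, and all 3 run toward lower levels in the *nm2* library.

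The summed level of the 41 genes was 7719 FPKM in the wildtype library against 3783 FPKM in the *nm2* library, or 0.670% and 0.320% of the summed FPKM of all genes. A lysozyme-like gene alone held 2092 FPKM of the wildtype sum. Without it the ratio of the sums was 0.560, against 0.490 with it. Of the 12 recognition genes with at least 100 FPKM in the wildtype, 5 were lower (41.7%). Among all 1238 genes at that level, 256 were lower (20.7%). Both shares filter on the wildtype level alone, which favours lower genes, so no result is drawn from them. Of the lower genes, *CTL4*, *CTL16* and *BGIBMGA000583* reached 100 FPKM in the wildtype library only. In the *nm2* library 8 recognition genes reached 100 FPKM. Among them *Lzm* and the lysozyme-like gene were lower and *BGRP1* was higher.

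C-type lectins, which bind sugars on microbial surfaces and take part in encapsulation by hemocytes, went in both directions and included the largest difference among the recognition genes. *CTL4* (*BGIBMGA005948*) had 488 FPKM in the wildtype library against 3.13 FPKM in the *nm2* library, 156-fold lower with a 95% counting interval of 66.4 to 481. By level among the 41 genes it ranked 5 in the wildtype library and 30 in the *nm2* library. Its *nm2* value rests on 5 recovered reads, against 722 in the wildtype.

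*CTL16* (*BGIBMGA007553*) had 369 FPKM in the wildtype library against 19.5 FPKM in the *nm2* library, 19.0-fold lower (14.3 to 25.6). The other lectins did not share this direction. *CTL19* (*BGIBMGA002289*) had 37.7 FPKM in the wildtype library against 85.1 FPKM in the *nm2* library, 2.26-fold higher (1.77 to 2.87), and its interval reaches below a factor of 2. *CTL5* (*BGIBMGA005977*) had 37.3 and 63.0 FPKM, a difference of 0.74 that lay inside the limit. *CTL11* (*BGIBMGA006623*) had 137 and 182 FPKM, *CTL10* (*BGIBMGA006768*) had 291 and 313 FPKM, and neither of these abundant lectins passed the limit. A lectin named C-type lectin 17 after the monarch butterfly (*BGIBMGA003387*) stayed low, at 2.38 and 3.75 FPKM. The median of the 6 lectins at 5 FPKM or more was 0.26, a value that says little about a list with such unequal members.

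Lysozymes are enzymes that cut peptidoglycan and so break the bacterial wall. Whether the genes named lysozyme-like encode such an enzyme is not given by the names. The genes with lysozyme in the name included the most abundant of the lower genes, with 2 of the 3 that reached 5 FPKM called lower and none higher. The lysozyme-like gene *BGIBMGA007458* was the most abundant of the 41 genes in the wildtype, with 2092 FPKM, and had 629 FPKM in the *nm2* mutant. It was 3.33-fold lower (3.11 to 3.57), from 3381 and 1095 recovered reads. The lysozyme gene *Lzm* (*BGIBMGA010439*) had 818 FPKM in the wildtype library against 164 FPKM in the *nm2* library, 4.98-fold lower (4.34 to 5.73). In the wildtype these genes ranked 1 and 3 among the 41, and in the *nm2* library 2 and 7. A gene named lysozyme-like protein 1 after the silkmoth *Antheraea mylitta* (*BGIBMGA014001*) had 99.6 and 53.5 FPKM, a difference of -0.88 inside the limit. The putative lysozyme *BGIBMGA012264* was barely expressed, at 1.90 and 2.09 FPKM. The summed level of the lysozymes was 3011 FPKM in the wildtype library against 849 FPKM in the *nm2* library.

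**Figure D2:**
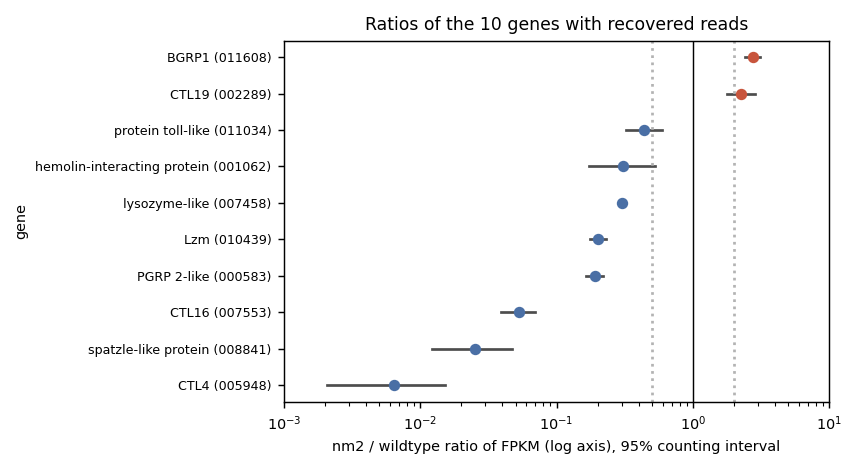
Ratio of *nm2* to wildtype FPKM on a log axis for the 10 genes with recovered reads, with bars for the 95% counting interval and dotted lines at ratios of 0.5 and 2. The 8 lower genes run from 0.00641 for *CTL4* to 0.438 for a Toll receptor, and *CTL19* and *BGRP1* lie above 1.

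Peptidoglycan recognition proteins were all expressed, and most differed little between the libraries. The exception among the abundant ones was a gene named peptidoglycan-recognition protein 2-like (*BGIBMGA000583*), with 347 FPKM in the wildtype library against 66.1 FPKM in the *nm2* library. It was 5.25-fold lower (4.56 to 6.07). The abundant short secreted forms lay much closer: *PGRP-S1* (*BGIBMGA008038*) had 534 and 408 FPKM, and peptidoglycan recognition protein S2 (*BGIBMGA007987*) had 393 and 268 FPKM. They ranked 4 and 6 in the wildtype and 3 and 5 in the *nm2* library.

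A gene whose BLAST name is peptidoglycan recognition protein S6 and whose RefSeq symbol is *PGRP-S5* (*BGIBMGA012866*) was weakly expressed, with 9.82 FPKM in the wildtype library against 3.51 FPKM in the *nm2* library. Its difference of -1.26 was past the limit and dropped to -1.04 after rescaling, and no reads could be recovered for it. The LB-like gene *BGIBMGA012865*, named after an enzyme that in *Drosophila* trims peptidoglycan and restrains the immune response, had 138 and 86.4 FPKM. *PGRP* (*BGIBMGA012864*) had 60.20 and 60.21 FPKM. The LE-like gene *BGIBMGA000673*, whose *Drosophila* namesake detects peptidoglycan inside cells, was near the limit of 5 FPKM, with 5.24 and 2.43 FPKM. It was 2.16-fold lower, and its difference of -0.86 lay inside the limit only through the added 1 FPKM. In all, 2 of the 10 were lower, none was higher, and the other 8 differed by -0.86 to 0.45. Of all genes 15% were lower, so this count stands near the background. Both LysM proteins lay between the limits, at 35.5 and 19.0 FPKM (*BGIBMGA001867*) and at 20.4 and 12.6 FPKM (*BGIBMGA004828*).

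Of the 4 beta-1,3-glucan recognition proteins, 1 was higher in the *nm2* library and the other 3 lay between the limits. *BGRP4* (*BGIBMGA000353*) was the second most abundant of the 41 genes in the wildtype and the most abundant in the *nm2* library, with 1199 and 897 FPKM, a difference of -0.42. *BGRP1* (*BGIBMGA011608*), named beta-1,3-glucan-binding protein in the table, had 53.2 FPKM in the wildtype library against 146 FPKM in the *nm2* library. It was 2.75-fold higher (2.41 to 3.14), the largest increase among the recognition genes. *BGRP3* (*BGIBMGA011607*) had 189 and 97.6 FPKM, and *BGRP2* (*BGIBMGA011609*) had 86.5 and 53.4 FPKM, with differences of -0.95 and -0.69 inside the limit.

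*BGRP3*, *BGRP1* and *BGRP2* stand side by side in the order of the RefSeq genes, with 0 coding genes between them, so the gene that was higher lies between the pair that was not. A second group of neighbours held 4 gene models of peptidoglycan recognition proteins. *BGIBMGA000584* and *BGIBMGA000585* share 1 BLAST hit and match the same RefSeq gene, with 5.65 and 8.07 FPKM for the former and 6.94 and 5.88 FPKM for the latter. *BGIBMGA000586* on one side had 5.48 and 6.10 FPKM. The 5.25-fold lower *BGIBMGA000583* stands on the other side with 0 coding genes between, and it was the only one of the 4 models above 10 FPKM. Of the 41 genes, 30 could be placed by the accession of their hit.

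**Figure D3:**
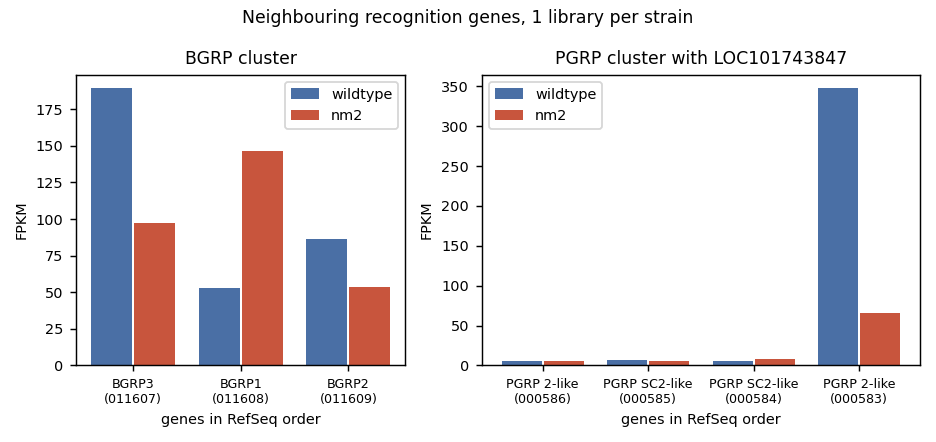
FPKM in the wildtype and *nm2* libraries, 1 bar per library, for neighbouring recognition genes in RefSeq order. In the beta-1,3-glucan group on the left only *BGRP1* has its taller bar in the *nm2* library, and in the peptidoglycan group on the right *BGIBMGA000583* goes from 347 to 66.1 FPKM beside 3 models under 10 FPKM.

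Hemolin, an immunoglobulin-like protein that moths make after infection, was hardly expressed in either head library. The hemolin gene *BGIBMGA008736* had 0.71 FPKM in the wildtype library against 0.66 FPKM in the *nm2* library. The hemolin-interacting protein gene *BGIBMGA001062*, taken for its name, had 45.8 and 14.2 FPKM, 3.23-fold lower with an interval of 1.89 to 5.76 from 57 and 19 reads.

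Of the genes with spatzle in the name, the one named spatzle-like protein was much lower in the *nm2* library. *BGIBMGA008841* had 78.0 FPKM in the wildtype library against 1.98 FPKM in the *nm2* library, 39.4-fold lower (21.1 to 82.7), with 365 and 10 recovered reads. The gene named for spatzle-1 itself, *SPZ1* (*BGIBMGA002397*), had 36.4 and 18.5 FPKM, and its difference of -0.94 lay just inside the limit. Whether the spatzle-like gene encodes a ligand of Toll is not stated in the files.

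The Toll receptors, which span the membrane, were mostly near silence in the head. Which of them bind cut spatzle is not given by the names. Of the 10 receptor genes, 7 stayed under 5 FPKM in both libraries, and the toll-like receptor 4-like gene *BGIBMGA012557* was listed at 0.67 FPKM in the wildtype and at 0 in the *nm2* mutant. The most abundant receptor was *BGIBMGA001713*, with 36.2 FPKM in the wildtype library against 49.8 FPKM in the *nm2* library. *BGIBMGA014370* was close between the libraries, at 22.7 and 19.6 FPKM. *BGIBMGA011034* had 23.9 and 10.4 FPKM, 2.28-fold lower (1.70 to 3.10), and was the one receptor past the limit. After rescaling it was at -0.86 and no longer past it. The median of the 3 receptors was -0.20 and became 0.07 with the rescaled library, so no common direction can be given for them.

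Genes just past the limit of 1 were *BGIBMGA011034* at -1.12, *CTL19* at 1.15 and *PGRP-S5* at -1.26. Just inside it were *BGRP3* at -0.95, *SPZ1* at -0.94 and lysozyme-like protein 1 at -0.88.

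Downstream of the receptors, the signalling genes of the Toll pathway were expressed at similar levels in both libraries. None of 10 was higher and 2 were lower (1 after rescaling), against 8.83% higher and 15% lower among all genes. The median was -0.33, near the -0.30 of all genes. *Cactus* (*BGIBMGA005834*), the inhibitor that holds Dorsal in the cytoplasm, had 156 and 125 FPKM. The MyD88-like adaptor (*BGIBMGA002869*) had 18.1 and 15.5 FPKM, and the Pelle-like kinase (*BGIBMGA000063*) had 39.7 and 28.8 FPKM. Both gene models named for Dorsal, isoform B (*BGIBMGA010496*) with 41.1 and 36.5 FPKM and isoform A (*BGIBMGA010497*) with 27.8 and 29.8 FPKM, were close as well. The lower genes were a TNF receptor-associated factor 4-like gene (*BGIBMGA006661*), an adaptor, at 5.14 and 0.95 FPKM, and a pellino-like gene (*BGIBMGA005063*), whose *Drosophila* namesake binds Pelle, at 25.2 and 11.6 FPKM. The difference of the pellino-like gene, -1.06, became -0.80 after rescaling and was then inside the limit.

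In the IMD branch 1 of 9 genes was lower and none was higher, a share of lower genes no larger than the 15% of all genes. The median was -0.51, against -0.30 for all genes. The lower gene was a kinase gene named mitogen-activated protein kinase kinase kinase 7-like (*BGIBMGA008981*), with 94.7 FPKM in the wildtype library against 29.5 FPKM in the *nm2* library. The neighbouring number *BGIBMGA008980* carries the same name and had 13.0 and 13.2 FPKM. The kinase *tak1* (*BGIBMGA010752*) had 27.6 and 13.8 FPKM, and the IKK beta-like gene (*BGIBMGA008389*) had 9.05 and 4.42 FPKM. They were 2.01-fold and 2.05-fold lower and lay inside the limit only through the added 1 FPKM. The count of 1 lower gene therefore depends on that addition.

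Upstream of spatzle and of phenoloxidase, serine proteases went the opposite way from the lysozymes and the lower lectins. Of 17 protease genes that reached 5 FPKM and are named for clip domains, snake, easter, hemolymph proteinases or the activation of prophenoloxidase, 11 were higher and none was lower, with a median of 1.49, against 8.83% higher, 15% lower and a median of -0.30 among all genes. The prophenoloxidase activating enzyme (*BGIBMGA013746*) had 55.1 FPKM in the wildtype library against 706 FPKM in the *nm2* library, 12.8-fold higher (11.0 to 15.0). Snake-like genes, named after a protease of the *Drosophila* embryo that acts before spatzle, were among the larger differences. *BGIBMGA012425* had 2.37 and 45.4 FPKM (19.2-fold higher, 8.56 to 53.3, with 6 wildtype reads), and *BGIBMGA010303* had 7.37 and 47.4 FPKM (6.42-fold higher, 4.24 to 9.78). Which of these proteases cuts spatzle in the silkworm is not given by the names.

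At the far end of the pathway, antimicrobial peptide genes were lower almost throughout. Of 19 that reached 5 FPKM, 16 were lower and none was higher, with a median of -3.70, or -3.55 when 3 of the 4 genes at 0 in the *nm2* mutant are set at a floor of 3 reads. Among all genes 15% were lower and 8.83% higher, and the median was -0.30. A pair of the 19 genes (*BGIBMGA000036* and *BGIBMGA000038*) has identical values, and counted once it leaves 15 of 18 lower. Moricin-2 (*BGIBMGA011495*) had 135 FPKM in the wildtype library, attacin (*BGIBMGA002747*) had 75.5 FPKM and a cecropin-B gene (*BGIBMGA000024*) had 66.0 FPKM. All 3 were listed at 0 in the other library, which makes moricin-2 at least 23.0-fold and attacin at least 62.1-fold lower against the floor. Among scavenger receptors, integrins and other surface receptors, 5 of 25 were higher and 4 were lower (3 after rescaling), with a median of 0.05, against 8.83% higher and 15% lower among all genes. There a scavenger receptor class B gene (*BGIBMGA011171*) had 6.23 and 28.9 FPKM, another (*BGIBMGA013436*) had 1.18 and 11.5 FPKM, and an integrin beta-3-like gene (*BGIBMGA006151*) had 14.7 and 2.41 FPKM.

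**Figure D4:**
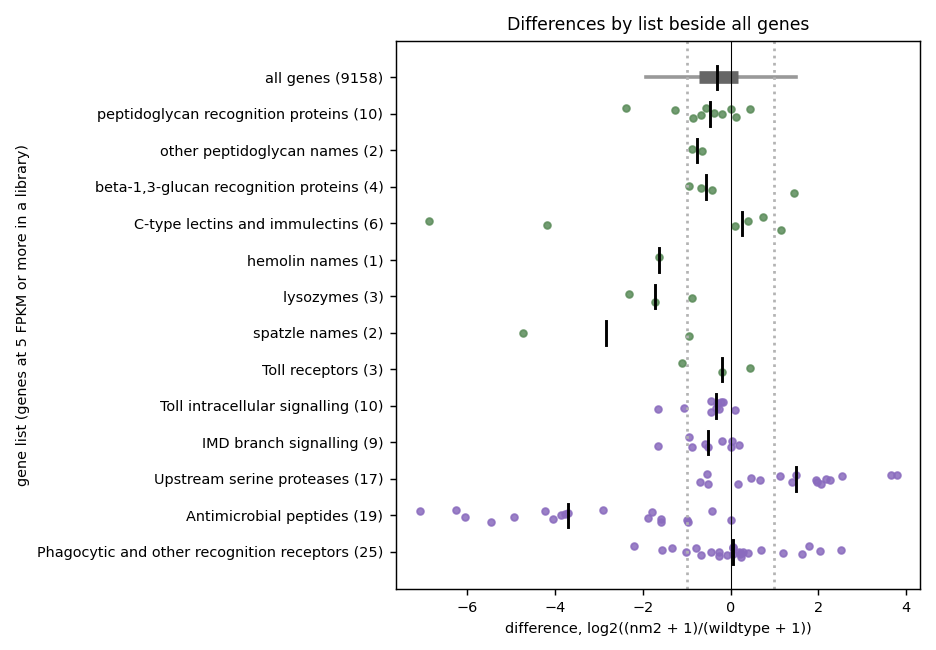
Difference of each gene at 5 FPKM or more in a library, log2((*nm2* + 1)/(wildtype + 1)), by list, with the number of genes in brackets, black ticks for the median and dotted lines at -1 and 1. For all 9158 genes the thick bar spans the middle 50% and the thin bar the middle 90%. Antimicrobial peptides lie mainly on the left, upstream serine proteases mainly on the right, and the C-type lectins on both sides.

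Recognition proteins are made mainly in fat body, hemocytes, gut and epidermis, so the levels of markers for these tissues are given beside the counts. For the counts of markers called, the shares among all genes at 5 FPKM or more were 8.83% higher and 15% lower. Hemocyte markers had a summed level of 321 FPKM in the wildtype library against 500.3 FPKM in the *nm2* library, with 4 of 11 higher and 1 lower, and 0 of 14 listed at 0. Both hemocytin genes, blood cell clotting proteins, were close between the libraries, at 7.65 and 9.14 FPKM (*BGIBMGA006692*) and at 14.2 and 14.8 FPKM (*BGIBMGA006694*). Others on the list were not. A hemocyte protein-glutamine gamma-glutamyltransferase-like gene (*BGIBMGA001976*) had 92.4 and 213 FPKM. Phenoloxidase subunit 1 (*BGIBMGA012763*) had 3.34 and 14.4 FPKM, and prophenoloxidase-1 (*BGIBMGA012764*) had 1.49 and 8.20 FPKM. The lower one was the integrin beta-3-like gene, at 14.7 and 2.41 FPKM. Fat body markers summed to 20195 and 41670 FPKM, with 18 of 32 higher and 4 lower, and storage proteins and 30K proteins were the most abundant in the *nm2* library. The list also held urbain (*BGIBMGA008287*), which went the other way from 2606 FPKM in the wildtype to 5.11 FPKM. Of the 49 names on that list 8 were at 0 in the wildtype and 4 were at 0 in the mutant. Vitellogenin (*BGIBMGA004585*) was near 0 in both, at 0.05 FPKM in the wildtype. Midgut markers summed to 36844 and 53020 FPKM, with 16 of 45 higher and 4 lower. Epidermis markers were called in both directions, 41 of 90 higher and 33 lower, and summed to 46116 and 120650 FPKM. Single genes held much of some sums. In the epidermis list *BGIBMGA005277* had 185 and 32989.5 FPKM, and in the midgut list *BGIBMGA014524* had 18456 and 22217 FPKM. These sums are therefore no measure of the amount of a tissue. The summed levels of all these lists were larger in the *nm2* library, and their part in the differences of the recognition genes was not tested.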

How the data were processed

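Expression was measured by digital gene expression sequencing in 2 libraries of silkworm heads, 1 of the wildtype C603 and 1 of the *nm2* mutant. The authors aligned clean reads of 49 bases to the SilkDB gene set with Bowtie2 and estimated FPKM with RSEM, and these FPKM were used as deposited. The deposited clean read counts and mapped percent per library give the depth. Of the authors' table of differentially expressed genes, the deposited gene lengths (other values) were used. Its fold changes, P-values and FDR, and the deposited enrichment tables, were not used.

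A pseudocount of 1 FPKM, a limit of 5 FPKM and an absolute log2 difference of 1 were applied. Reads were recovered by searching for the library totals that make FPKM times length, less 36 bases, a whole number. The totals were 3766500 and 4059000, and 89.8% of 137 wildtype and 97.3% of 220 *nm2* low values lay within 0.1 of a whole number. Both totals are below the reads mapped to genes. The range searched ended below those reads, so no total as large could be returned, and larger totals were not tested. Larger true totals would narrow the intervals. Intervals are exact conditional binomial at 95%, and genes listed at 0 were set against 3 counts. RSEM divides reads among similar copies, so values of close paralogs are uncertain.

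Gene lists were matched on BLAST names. The genes and lists were chosen with earlier results of these data known. Names that matched a list by accident, such as disintegrins, were dropped by name after the matches had been seen. The genes named are those past the limit, the most abundant of each role, those at the limit, those at 0, neighbours of these, and up to 3 per pathway list. Other genes of a list (*CTL5*, *CTL10*, *CTL11*, *Cactus*, MyD88, Pelle and Dorsal among them) were named after their values were seen. Gene symbols and the order of genes came from RefSeq (assembly ASM3026992v2) by the accession of the BLAST hit. That is another assembly than the one used by the authors, and no coordinates are given. Sequences are not used here. Intervals were computed with SciPy 1.17.1 in Python 3.11.15, tables with pandas 2.3.3 and NumPy 2.4.6, and plots with matplotlib 3.10.9. The computations were tested on simulated data.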

Additional observations from a re-analysis of the deposited data

How the results depend on the processing

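The alternatives were 3 other scalings (a sum of 1000000, a median log2 ratio of 0, 3 housekeeping genes), pseudocounts of 0.1 and 0.01 FPKM, limits of 1 FPKM, of 20 FPKM and none, counting shared BLAST hits once, and leaving out names that are not the protein itself. Across them 8 to 10 recognition genes were lower and 2 or 3 were higher, and the median of the genes each alternative kept ran from -0.70 to -0.39. The median of the Toll receptors turned from -0.20 to 0.072 with the *nm2* library rescaled to a median log2 ratio of 0, and with that scaling *BGIBMGA011034* went from -1.12 to -0.86 and the pellino-like gene from -1.06 to -0.80, both no longer past the limit. The medians of the C-type lectins, the peptidoglycan recognition proteins and the lysozymes kept their sign, and those of the other roles were not followed through the alternatives. With disintegrin and similar names left in, a setting added after seeing the data, 7 in place of 4 surface receptor genes were lower. Intervals from whole gene lengths moved no ratio by as much as 1.5 times. No paired analysis was possible because each strain has 1 library, and for the same reason no replicate could be left out. Depth limits the 10 genes under 5 FPKM, and *CTL4* and the spatzle-like gene rest on 5 and 10 *nm2* reads.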
